A study of Mus musculus with 30 samples.

Results

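The 10 genes described here carry or shape the cAMP signal that ends at DARPP-32 in striatal medium spiny neurons. They were taken by symbol from a given list, and each was matched to 1 gene of GENCODE release M21. They are Ppp1r1b (DARPP-32), Gnal and Gng7 (subunits of the G protein Golf), Pde10a, Pde1b, Pde7b and Pde2a (phosphodiesterases), and Prkar2b, Prkaca and Prkacb (subunits of protein kinase A, PKA). They make up 10 of the 55335 genes in the count table, and all 10 are among the 19368 genes that passed the filter on low counts. Polyribosomes carrying a tagged ribosomal protein (RiboTag, RT) were immunoprecipitated by their HA tag out of nucleus accumbens punches of female mice, and the RNA bound to them was sequenced. D1-Cre-RT mice carry the tag in D1 receptor-expressing medium spiny neurons. A2A-Cre-RT mice carry it in neurons that express the adenosine A2A receptor, and their libraries are titled D2. Within each genotype there were 5 Control, 5 Resilient and 5 Susceptible libraries, 30 in all. Resilient and Susceptible mice had been exposed to CWDS (chronic witness defeat stress) and were told apart by their social interaction scores. Punches were collected 24 h later than social interaction testing. Each library pooled 4 mice of similar social interaction ratio, so that the spread within a group is between pools. Age is not given in the sources used here. The neuron class cannot be told apart from the Cre line, and in pulldowns of this kind fewer cells of a type and less RNA per cell cannot be told apart either.

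In medium spiny neurons, D1 receptors and A2A receptors activate adenylyl cyclase through Golf, and D2 receptors restrain it. The cAMP made frees the catalytic subunits of PKA from the regulatory ones, and phosphodiesterases end the signal by breaking down cAMP and, for some of them, cGMP. DARPP-32 is a target of PKA that, once phosphorylated, inhibits protein phosphatase-1 and so prolongs the phosphorylation of other PKA targets. These proteins are abundant in the striatum, where they serve both neuron classes.

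Depth was 28996168 to 65882152 counts per library. The class labels were checked against the receptor genes that define them. Drd1 lay at 377 to 616 CPM (a gene's counts scaled to a common library size, with TMM factors for composition) in D1 libraries and at 50.3 to 147 CPM in 13 of the 15 D2 libraries. It lay at 247 CPM in D2 Control replicate 5 and 414 CPM in D2 Resilient replicate 5, where Drd2 was lowest of the D2 libraries, at 294 and 205 CPM. Adora2a lay at 111 to 238 CPM in D1 Control, 134 to 227 CPM in D1 Resilient and 105 to 314 CPM in D1 Susceptible libraries. In D2 libraries it lay at 491 to 1457 CPM. Summed over 4 D2 class markers, the medians were 1338, 1512 and 2310 CPM in D1 Control, Resilient and Susceptible libraries. The part of this in the member differences was not tested. In quality, 3 other libraries stood apart. D1 Susceptible replicate 1 had 54.9% of its counts in 1 gene, Gm42418. D2 Susceptible replicates 1 and 2 had 15822 and 16525 genes with a count, where the other 28 libraries had 19440 to 22375. Where a member's Susceptible difference printed below moves by over 1.5 times without these 3 libraries, or its call does, both values are given.

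Per kilobase of exon, Ppp1r1b was the most abundant of the 10 genes in every group. Its level was 712 ± 78.1 CPM per kb among D1 Control and 879 ± 138 CPM per kb among D2 Control libraries (SD, n = 5 each). In D1 Control libraries Pde1b followed at 180 ± 16.8 CPM per kb and Gng7 at 141 ± 20.4 CPM per kb (SD, n = 5 each), and the ranges of these neighbours in the order overlapped. The kinase subunits and Gnal formed a middle tier with overlapping ranges between each neighbour: Prkacb had 88.2 ± 8.24, Prkaca 74.0 ± 3.63, Gnal 71.6 ± 4.24 and Prkar2b 69.3 ± 6.37 CPM per kb. Pde10a (47.7 ± 4.75 CPM per kb) and Pde7b (16.4 ± 1.35 CPM per kb) lay below them without overlap. The first 3 and the last 3 places of this order were held by the same genes in all 6 groups. Per-length values use all annotated exons of a gene, so the isoforms in use can shift them.

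Pde2a, the cGMP-stimulated phosphodiesterase (ENSMUSG00000110195, GRCm38 chr7:101421691-101512827, plus strand), came last, with 0.108 ± 0.0381 CPM per kb in D1 Control. Its counts ran from 4 to 124 per library. Of its 6149 exon bases, 3955 are shared with the gene Gm45837 on the same strand, and how the counting treated reads in shared exons is not given in the sources used here. Its level is therefore uncertain.

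**Figure D1:**
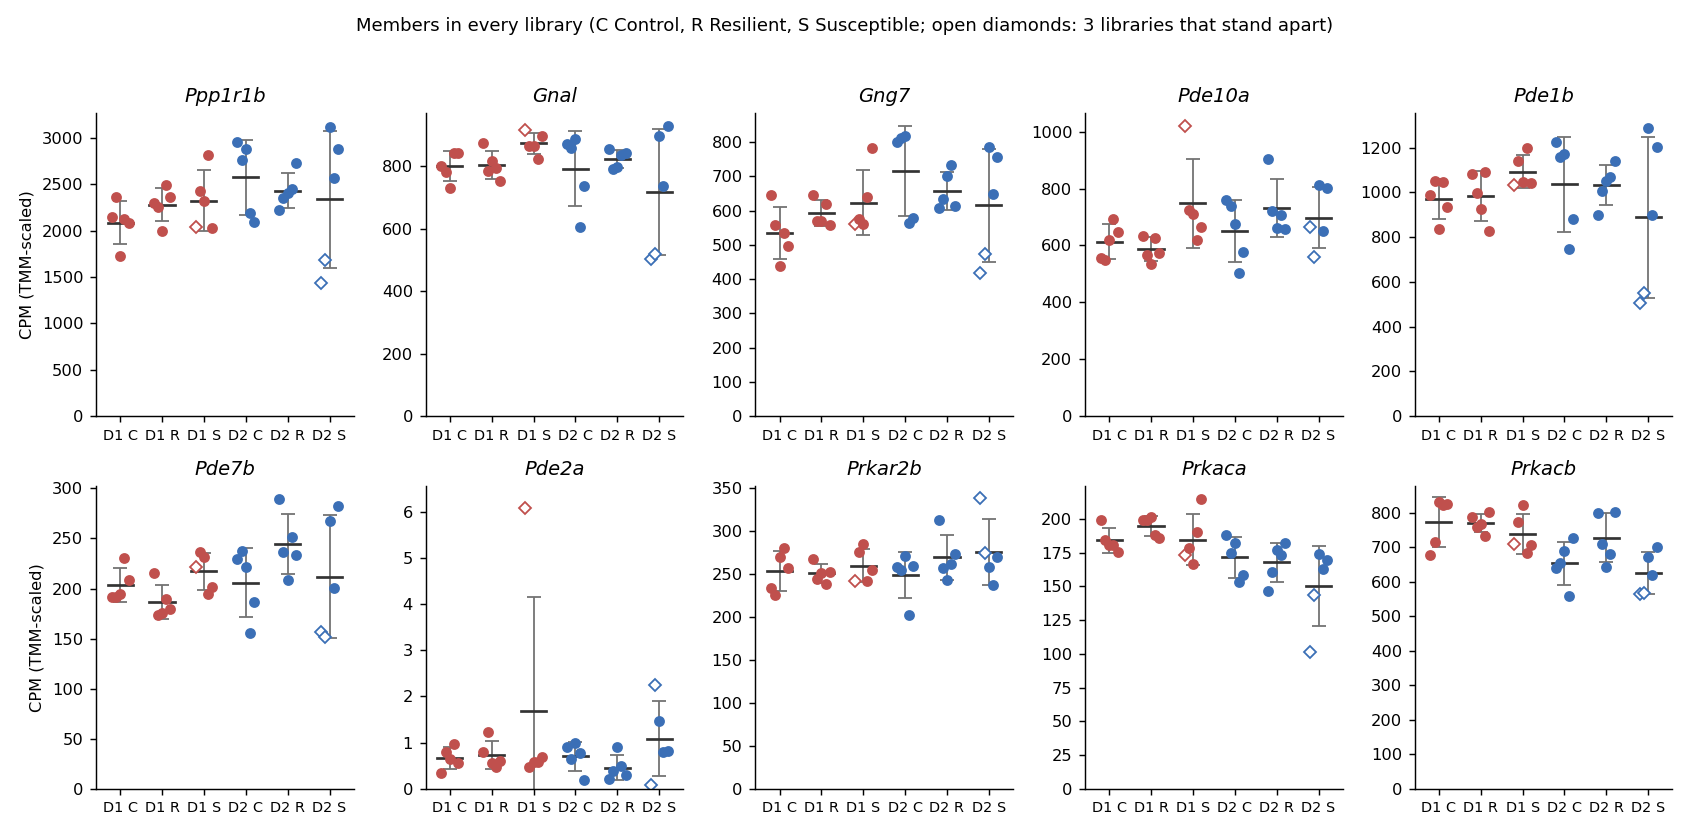
Each panel shows 1 gene in all 30 libraries, as CPM on TMM-scaled library sizes, with D1 libraries in red and D2 libraries in blue. Dark lines are group means and grey bars the SD over 5 libraries (cut at 0 for Pde2a), and open diamonds are the 3 libraries that stand apart. D2 Susceptible replicates 1 and 2 lie lowest of their group for Ppp1r1b, Gnal, Gng7, Pde1b, Pde7b, Prkaca and Prkacb.

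Ppp1r1b (ENSMUSG00000061718, GRCm38 chr11:98348404-98357796, plus strand) encodes DARPP-32. In D1 Control libraries it had 2143, 2357, 1723, 2121 and 2085 CPM in replicates 1 to 5. In D2 Control libraries it had 2949, 2756, 2879, 2187 and 2092 CPM. Replicates 1 to 3 of D2 Control lie above every D1 Control library, and replicates 4 and 5 lie within the D1 range. The log2 difference, D1 minus D2, was -0.30 (SE 0.15) and did not pass (edgeR adjusted p = 0.250). In Resilient libraries Ppp1r1b had 2294, 2256, 1998, 2494 and 2358 CPM in D1 and 2217, 2349, 2408, 2446 and 2732 CPM in D2, and these ranges overlap. In D1 Susceptible libraries it had 2039, 2422, 2318, 2813 and 2023 CPM. In D2 Susceptible libraries it had 1438, 1682, 3118, 2563 and 2873 CPM. The D2 Susceptible group splits between the 2 libraries with few detected genes, which are the lowest of all 30 libraries, and the other 3. Its coefficient of variation was 31.7%, against 7.79% to 15.7% in the other 5 groups. Of its 2928 exon bases, 460 are shared with 1700003D09Rik on the opposite strand, and the strand setting of the counting is not given in the sources used here.

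Gnal (ENSMUSG00000024524) encodes the alpha subunit of Golf, the form of stimulatory G protein that couples D1 and A2A receptors to adenylyl cyclase in the striatum. Among D1 libraries its mean was 800 ± 47.4 CPM for Control and 805 ± 45.3 CPM for Resilient, and among D2 libraries 792 ± 120 CPM for Control and 824 ± 28.2 CPM for Resilient (SD, n = 5 each). D1 Susceptible libraries had 914, 865, 863, 825 and 897 CPM, and D2 Susceptible libraries had 503, 518, 895, 736 and 930 CPM. The low values are again replicates 1 and 2 of D2 Susceptible. The D1 minus D2 difference in Susceptible libraries was 0.28 on the log2 scale (SE 0.12, edgeR adjusted p = 0.0901), and it was 0.02 (SE 0.10) without the 3 libraries that stand apart. Per kilobase of exon, Gnal made up 59.9% ± 3.96 of the summed level of Gnal and the related Gnas in D1 libraries and 60.3% ± 2.47 in D2 libraries (SD, n = 15 each). Gnal shares 852 of its 11172 exon bases with Mppe1 on the opposite strand.

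Gng7 (ENSMUSG00000048240, GRCm38 chr10:80948624-81014945, minus strand) encodes the gamma subunit that pairs with Golf in the striatum. In D1 Control libraries it had 647, 557, 439, 535 and 496 CPM, and in D2 Control libraries 800, 813, 819, 564 and 579 CPM. Replicates 1 to 3 of D2 Control lie above every D1 Control library, as for Ppp1r1b, and the other 2 within the D1 range. The D1 minus D2 difference was -0.42 on the log2 scale (SE 0.14, edgeR adjusted p = 0.0658). In Resilient libraries Gng7 stood at 593 ± 38.2 CPM in D1 and 658 ± 55.8 CPM in D2, and in Susceptible libraries at 623 ± 94.7 CPM in D1 and 616 ± 165 CPM in D2 (SD, n = 5 each). The smaller gap in Susceptible libraries was tested as a difference of differences, which was 0.43 (SE 0.20) and did not pass (edgeR adjusted p = 0.637). Without the 3 libraries that stand apart it was 0.24 (SE 0.17), and the D1 minus D2 difference in Susceptible libraries was -0.18 (SE 0.13). Among Gng7, Gng3 and Gng2, Gng7 held 53.0% ± 4.31 of the summed level per kilobase in D1 and 61.9% ± 5.73 in D2 libraries (SD, n = 15 each). The share moves with the other genes too. In D1 and D2 libraries, Gng7 had means of 154 and 175 CPM per kb. Gng3 had 112 and 95.2 CPM per kb, and Gng2 had 23.8 and 10.6 CPM per kb.

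The phosphodiesterases of this list differ in how they are regulated. Pde10a (ENSMUSG00000023868, GRCm38 chr17:8525372-8986648, plus strand) breaks down both cAMP and cGMP and is a hallmark enzyme of medium spiny neurons. In D1 Resilient libraries it had 634, 567, 534, 625 and 573 CPM, and in D2 Resilient libraries 905, 722, 662, 707 and 658 CPM. All 5 D2 Resilient libraries lie above all 5 D1 Resilient libraries. The D1 minus D2 difference was -0.32 on the log2 scale (SE 0.13) and did not pass (edgeR adjusted p = 0.165). D1 Control libraries had 557, 549, 618, 693 and 649 CPM, and D1 Susceptible libraries had 1019, 725, 711, 619 and 666 CPM. The value of 1019 CPM is that of the library with most of its counts in Gm42418, and the other 4 lie partly within the Control range. The Susceptible minus Control difference in D1 libraries was 0.29 (SE 0.13, edgeR adjusted p = 1.0), and leaving out 1 library at a time or changing the method moved it between 0.16 and 0.35. Against D1 Resilient it was 0.35 (SE 0.13, edgeR adjusted p = 0.990), and 0.21 without D1 Susceptible replicate 1 alone.

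Pde7b (ENSMUSG00000019990, GRCm38 chr10:20398004-20725078, minus strand) is a cAMP-specific phosphodiesterase. D1 Resilient libraries had 215, 174, 176, 190 and 180 CPM, and D2 Resilient libraries had 290, 236, 209, 252 and 234 CPM. The groups overlap by a single pair of libraries, D1 replicate 1 and D2 replicate 3. The D1 minus D2 difference was -0.39 on the log2 scale (SE 0.14) and did not pass (edgeR adjusted p = 0.0963). In Control libraries Pde7b stood at 203 ± 16.8 CPM in D1 and 206 ± 34.3 CPM in D2, and in Susceptible libraries at 217 ± 18.3 CPM and 212 ± 61.2 CPM (SD, n = 5 each). The change from Resilient to Susceptible, D1 minus D2, was 0.42 for Pde7b (SE 0.19, edgeR adjusted p = 0.363) and 0.42 for Pde10a (SE 0.18, edgeR adjusted p = 0.333). These were 0.18 (SE 0.16) and 0.17 (SE 0.155) without the 3 libraries that stand apart.

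Pde1b (ENSMUSG00000022489, GRCm38 chr15:103503034-103530052, plus strand) is activated by calcium and calmodulin. It was the most abundant phosphodiesterase per kilobase in both classes, with 53.6% ± 3.07 of the summed level of 18 phosphodiesterase genes in D1 libraries and 53.3% ± 5.64 in D2 libraries (SD, n = 15 each). Pde10a held 14.4% ± 1.90 and 16.1% ± 2.34, and Pde7b 4.64% ± 0.320 and 5.23% ± 0.546. The sum includes Pde2a, whose level is uncertain because of its shared exons. These shares and the first place of Pde1b hold for Pde2a as counted here. The D2 Susceptible libraries had 505, 549, 1289, 899 and 1201 CPM of Pde1b, the widest relative spread among the members after Pde2a, with replicates 1 and 2 lowest. In the other 5 groups its mean lay between 971 and 1092 CPM.

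**Figure D2:**
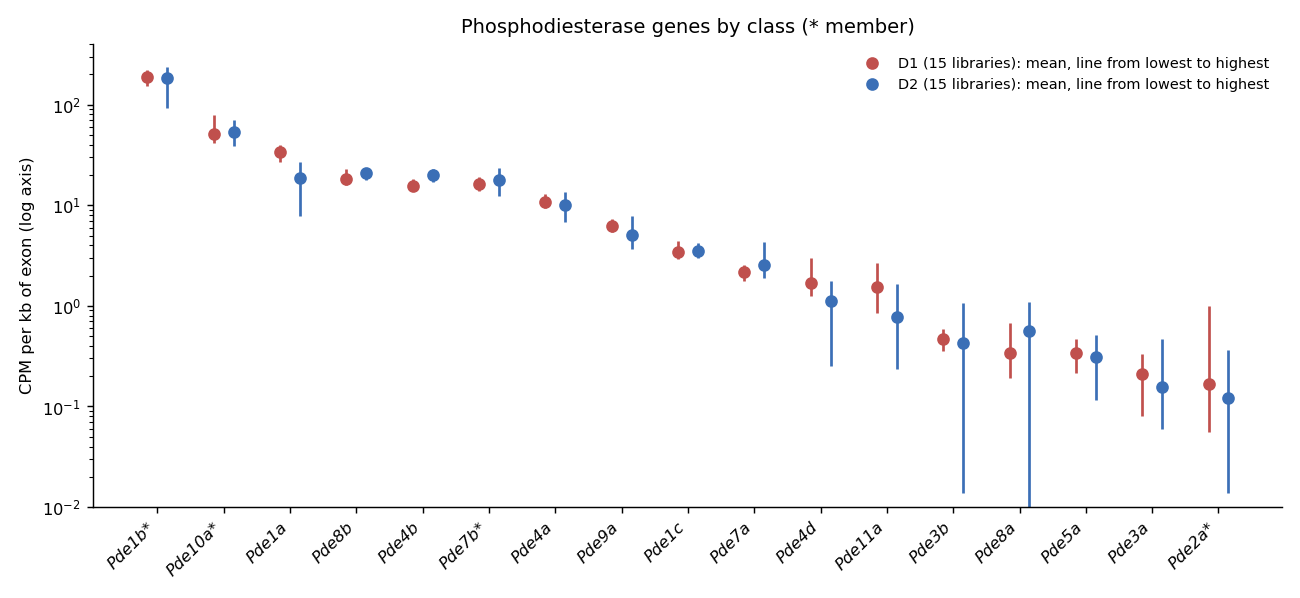
The points are mean levels of phosphodiesterase genes per kilobase of exon on a log axis, with lines from the lowest to the highest of 15 libraries per class, D1 in red and D2 in blue, and members marked by an asterisk. Pde1b and Pde10a lead in both classes, and Pde1a has a higher mean in D1. Pde2a is last as counted, and its level is uncertain because of shared exons. Lines that reach the lower edge include a library at 0 (Pde8a), and Pde4c, near 0 throughout, is not drawn.

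PKA is a complex of regulatory and catalytic subunits, and the list holds the regulatory subunit gene Prkar2b and both catalytic subunit genes. Prkar2b (ENSMUSG00000002997, GRCm38 chr12:31958476-32061296, minus strand) had group means between 249.1 and 275.6 CPM, the narrowest band of the members in proportion to its level. D2 Susceptible replicates 1 and 2, which were low for most of the list, had 339 and 274 CPM, the highest values of their group. Per kilobase, Prkar2b made up 15.3% ± 0.857 of the 4 regulatory subunit genes in D1 libraries and 17.7% ± 2.08 in D2 libraries (SD, n = 15 each), behind Prkar1a and Prkar1b.

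Prkaca (ENSMUSG00000005469, GRCm38 chr8:83972993-83996443, plus strand) and Prkacb (ENSMUSG00000005034, GRCm38 chr3:146729574-146812990, minus strand) encode the catalytic subunits. They were the only members called in any of the 12 comparisons, and both were higher in D1 than in D2 Susceptible libraries. D1 Susceptible libraries had 174, 178, 166, 191 and 215 CPM of Prkaca, and D2 Susceptible libraries had 101, 143, 174, 163 and 170 CPM. The groups overlap, since D2 replicates 3 and 5 lie above the lowest D1 library. The difference was 0.30 on the log2 scale (SE 0.10, edgeR adjusted p = 0.0324), a 1.23-fold higher level in D1. For Prkacb, D1 Susceptible libraries had 707, 772, 823, 681 and 706 CPM, and D2 Susceptible libraries had 565, 566, 671, 619 and 701 CPM. Here 1 D2 library, replicate 5, lies within the D1 range. The difference was 0.24 (SE 0.08, edgeR adjusted p = 0.0369), a 1.18-fold higher level in D1.

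So 2 of the 10 members were called between the classes in Susceptible libraries, where 23.9% of all genes tested were called, a share close to that of the members. DESeq2 called the same 2 members, against 27.9% of all genes, and limma's voom 1, Gng7, against 17.0%. By voom Prkaca differed by 0.07 (voom adjusted p = 0.501), and neither catalytic subunit gene was called. Neither was called in a fit of only the groups compared (Prkaca 0.30, edgeR adjusted p = 0.227). In the main edgeR fit the median difference of the members was 0.17 on the log2 scale, with 8 above 0, and that of all genes was 0.02. Without the 3 libraries that stand apart the members' median was -0.08, with 4 above 0. The median of all genes in that fit is not given here. Both calls were lost without either of D2 Susceptible replicates 1 and 2. Without the 3 libraries that stand apart, Prkaca differed by 0.16 (SE 0.09, edgeR adjusted p = 0.297) and Prkacb by 0.18 (SE 0.09, edgeR adjusted p = 0.259), and 0 members were called, against 10.2% of all genes. With all libraries in place, the libraries of the classes overlapped for every member in this comparison, and they did not for 8.92% of all genes. Leaving out D2 Susceptible replicate 1 alone gave edgeR adjusted p = 0.0815 for Prkaca and 0.0653 for Prkacb, and leaving out replicate 2 alone gave 0.0516 and 0.0658. The Prkaca call was also lost without D1 Susceptible replicate 5 (edgeR adjusted p = 0.0835) and the Prkacb call without D1 Susceptible replicate 3 (edgeR adjusted p = 0.0704).

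In the other stress groups the catalytic subunit differences were above 0 and none passed. Prkaca in Control differed by 0.10 (SE 0.10, edgeR adjusted p = 0.674) and Prkacb in Resilient libraries by 0.08 (SE 0.08, edgeR adjusted p = 0.831). Prkaca in D1 Resilient libraries (199, 199, 202, 188 and 186 CPM) lay above all D2 Resilient libraries (147, 160, 177, 174 and 182 CPM), with a difference of 0.21 (SE 0.10) that did not pass (edgeR adjusted p = 0.3003). Prkacb in Control libraries had 678, 714, 832, 821 and 825 CPM in D1 and 639, 655, 688, 560 and 727 CPM in D2. These groups overlap, and the difference of 0.24 (SE 0.08) did not pass (edgeR adjusted p = 0.0740). Prkaca held 46.6% ± 2.97 of the summed level of both genes per kilobase in D1 and 46.2% ± 3.55 in D2 libraries (SD, n = 15 each), so that the classes had nearly the same mix.

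The promoters of these called genes are shown because the cAMP response element (CRE), to which cAMP-regulated transcription factors bind, can be looked for in them. RefSeq windows of 250 bases before to 50 after an annotated start (GRCm38.p6) were at hand for 8 of the 10 members. Capitals mark the core of the element, TGACG, or CGTCA where it lies on the other strand. The stretches end where an annotated exon begins.
Prkaca, chr8:83972728-83972977, plus strand: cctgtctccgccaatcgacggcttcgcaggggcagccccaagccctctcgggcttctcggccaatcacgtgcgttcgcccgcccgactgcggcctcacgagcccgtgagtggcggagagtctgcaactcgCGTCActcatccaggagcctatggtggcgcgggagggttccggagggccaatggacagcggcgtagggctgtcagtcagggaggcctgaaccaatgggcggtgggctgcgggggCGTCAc
Prkacb, chr3:146812991-146813196, minus strand: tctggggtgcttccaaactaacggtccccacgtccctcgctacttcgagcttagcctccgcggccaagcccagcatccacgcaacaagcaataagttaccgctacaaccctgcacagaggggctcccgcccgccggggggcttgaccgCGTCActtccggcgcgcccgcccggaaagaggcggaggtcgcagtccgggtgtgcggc
The Prkaca stretch holds CGTCA at 120 to 116 and at 6 to 2 bases before the start, and the Prkacb stretch holds it at 102 to 98 bases before the start. Distances are counted from the RefSeq start (83972978 for Prkaca and 146812946 for Prkacb), and the Prkacb stretch ends upstream of that start, where the GENCODE gene begins. The core was found in 4 of the 20 windows of the 8 members, 1 each of Gng7, Pde2a, Prkaca and Prkacb, and 20.8% of all 32851 windows in the table hold it, so its share among the members is near that of all promoters. The full palindrome, TGACGTCA, which contains the core on both strands, was in none of the members' windows and in 1.79% of all windows. A match describes these letters only.

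In Control libraries 0 of the 10 members were called between D1 and D2 (edgeR), where 8.3% of all genes tested were. At an unadjusted p under 0.05 there were 3 members (Ppp1r1b, Gng7 and Prkacb) and 3870 genes, 20.0% of all genes tested. DESeq2 called 2 members, against 10.6% of all genes, and limma's voom 3, against 28.5%. The libraries of the classes overlapped for all 10 members, and they did not for 11.7% of all genes. Without the 3 libraries that stand apart, none of which is in these groups, these 3 members were called, against 15.9% of all genes. Ppp1r1b stood at -0.31 (SE 0.098, edgeR adjusted p = 0.0290), Gng7 at -0.42 (SE 0.111, edgeR adjusted p = 0.00793) and Prkacb at 0.24 (SE 0.077, edgeR adjusted p = 0.0306). Gng7 and Prkacb were also called with all other libraries in place when D1 Control replicate 1 was left out (edgeR adjusted p = 0.0374 and 0.0256) or D2 Control replicate 5 (edgeR adjusted p = 0.0436 and 0.0291). The median difference of the members was -0.05 and that of all genes 0.00 on the log2 scale.

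In Resilient libraries 0 of the 10 members were called between D1 and D2 (edgeR), where 6.65% of all genes tested were. At an unadjusted p under 0.05 there were 3 members (Pde10a, Pde7b and Prkaca) and 2945 genes, 15.2% of all genes tested. DESeq2 called 1 member, against 8.23% of all genes, and limma's voom 3, against 17.6%. The libraries of the classes did not overlap for 2 members, Pde10a and Prkaca, and for 9.7% of all genes. Without the 3 libraries that stand apart Pde10a differed by -0.32 (edgeR adjusted p = 0.0323) and Pde7b by -0.38 (edgeR adjusted p = 0.0108), so that 2 members were called, against 11.4% of all genes. Without D2 Resilient replicate 5, the library with high Drd1, the differences were -0.33 for Pde10a, -0.38 for Pde7b and 0.26 for Prkaca, and none was called.

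**Figure D3:**
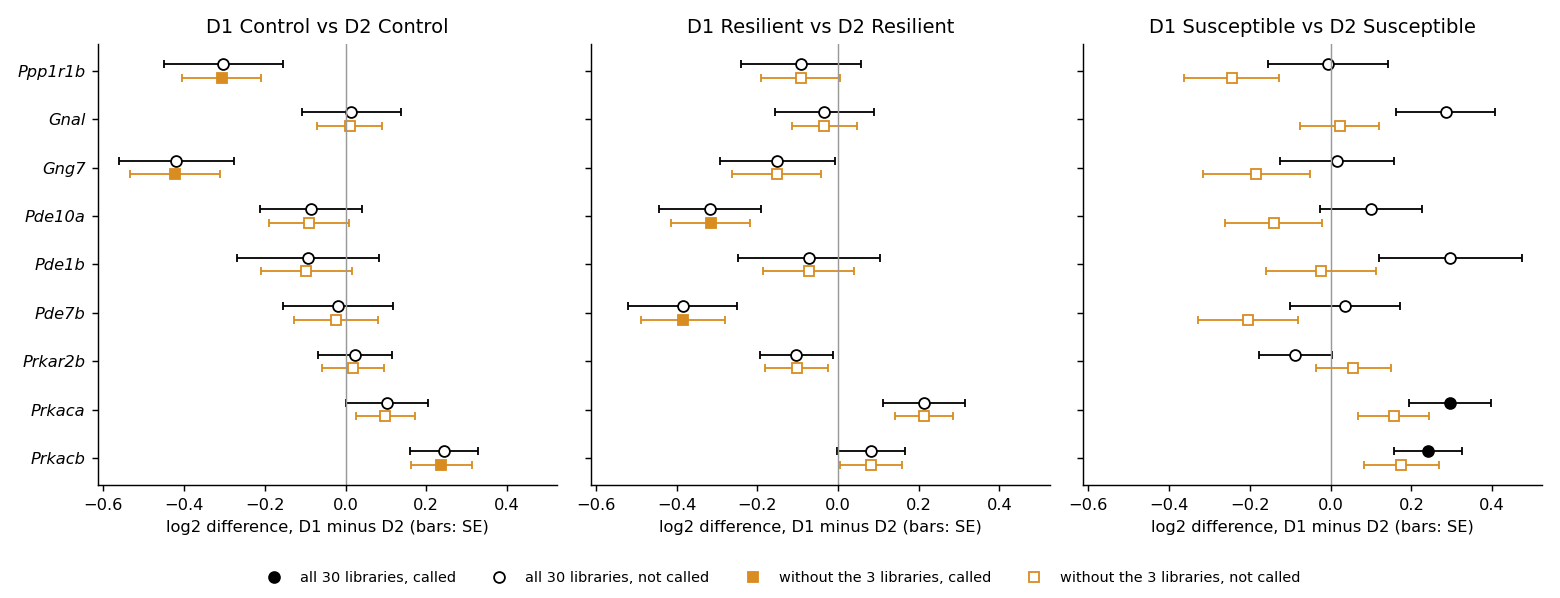
The points are log2 differences, D1 minus D2, for 9 members (Pde2a, with few counts, is left out) in each stress group, with bars of 1 SE. Black circles use all 30 libraries and orange squares leave out the 3 libraries that stand apart, and filled symbols passed an edgeR adjusted p of 0.05. Only Prkaca and Prkacb are filled with all libraries, in the Susceptible panel, and neither is filled there without the 3. Without the 3, Ppp1r1b, Gng7 and Prkacb are filled in the Control panel and Pde10a and Pde7b in the Resilient panel.

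Other cell types moved with class. Summed over 7 endothelial markers, D1 libraries had 15.7 to 44.2 CPM and D2 libraries 73.2 to 370 CPM, and all 7 were lower in D1 in each stress group (edgeR). Of 7 astrocyte markers (279 to 813 CPM in D1, 323 to 746 CPM in D2), 4, 6 and 5 were lower in D1 in Control, Resilient and Susceptible libraries. Of 8 oligodendrocyte markers (392 to 1048 against 448 to 1923 CPM) 0, 3 and 5 were lower in D1. Of 7 microglial markers (10.4 to 42.2 against 14.4 to 48.7 CPM) 0, 3 and 0 were. Of 8 interneuron markers (300 to 491 against 70.7 to 294 CPM) 4, 4 and 6 were higher in D1, and 1, 0 and 1 lower. No marker was at 0 in all libraries of a group. Their part in the member differences was not tested.

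Between stress groups, none of the 10 members was called in any of 6 comparisons within a class. The calls over all genes tested were 0 (0.0%) in each of the 3 D1 comparisons and in D2 Resilient vs Control, 1 (0.00516%) in D2 Susceptible vs Control and 10 (0.0516%) in D2 Susceptible vs Resilient. At an unadjusted p under 0.05 there was Pde10a in D1 Susceptible against D1 Control and against D1 Resilient, and Prkacb in D2 Susceptible against D2 Resilient. Of all genes, 2.4%, 3.49% and 19.1% lay under that value in these 3 comparisons. DESeq2 and voom also called 0 members in each of the 6. Of 19368 genes, DESeq2 called 3, 1 and 8 in D1 for Susceptible vs Control, Resilient vs Control and Susceptible vs Resilient. In D2 it called 255, 5 and 976 in the same order. By voom the counts were 0, 180 and 14 in D1 and 0, 2 and 1 in D2. For all 10 members the libraries of the groups overlapped in each of the 6. Of all genes tested they did not overlap for 0.888% (D1 Susceptible vs Control), 1.54% (D1 Resilient vs Control) and 1.12% (D1 Susceptible vs Resilient), and in D2 for 1.31% (Susceptible vs Control), 1.31% (Resilient vs Control) and 1.5% (Susceptible vs Resilient). In D1, Susceptible vs Control, 9 of 10 members lay above 0 with a median of 0.14, where the median of all genes was -0.01. Without the 3 libraries that stand apart, 8 of 10 lay above 0 in D1 with a median of 0.11. In D2, 6 of 10 lay below 0 with a median of -0.10 for Susceptible vs Control, and all genes had -0.03. That direction turned without the 3 libraries, when 9 of 10 members lay above 0 with a median of 0.11. The medians of all genes without the 3 libraries are not given here. Comparisons within a class share libraries, so these counts are not independent of each other. Members also rise and fall together between libraries (r = 0.93 for Pde10a with Pde7b without the 3 libraries). The number above 0 is therefore not a count of separate observations.

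Prkacb had the smallest adjusted p among the stress comparisons. D2 Resilient libraries had 799, 709, 643, 681 and 800 CPM and D2 Susceptible libraries 565, 566, 671, 619 and 701 CPM. The difference was -0.22 on the log2 scale (SE 0.08, edgeR adjusted p = 0.154), and -0.14 (SE 0.09, edgeR adjusted p = 0.941) without the 3 libraries. No member passed the test for a stress change that differs between D1 and D2, in 3 such comparisons that called 0.0% of all genes each. The smallest adjusted p there was 0.333 (edgeR, Pde10a), and at an unadjusted p under 0.05 there were Gng7 (Susceptible vs Control), Pde10a and Pde7b (both Susceptible vs Resilient). Of all genes, 7.79% and 12.4% lay under that value in these comparisons. DESeq2 and voom also called 0 members in these 3. Of 19368 genes, DESeq2 called 5 for Susceptible vs Control, 7 for Resilient vs Control and 47 for Susceptible vs Resilient. By voom the counts were 0, 160 and 0 in the same order.

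**Figure D4:**
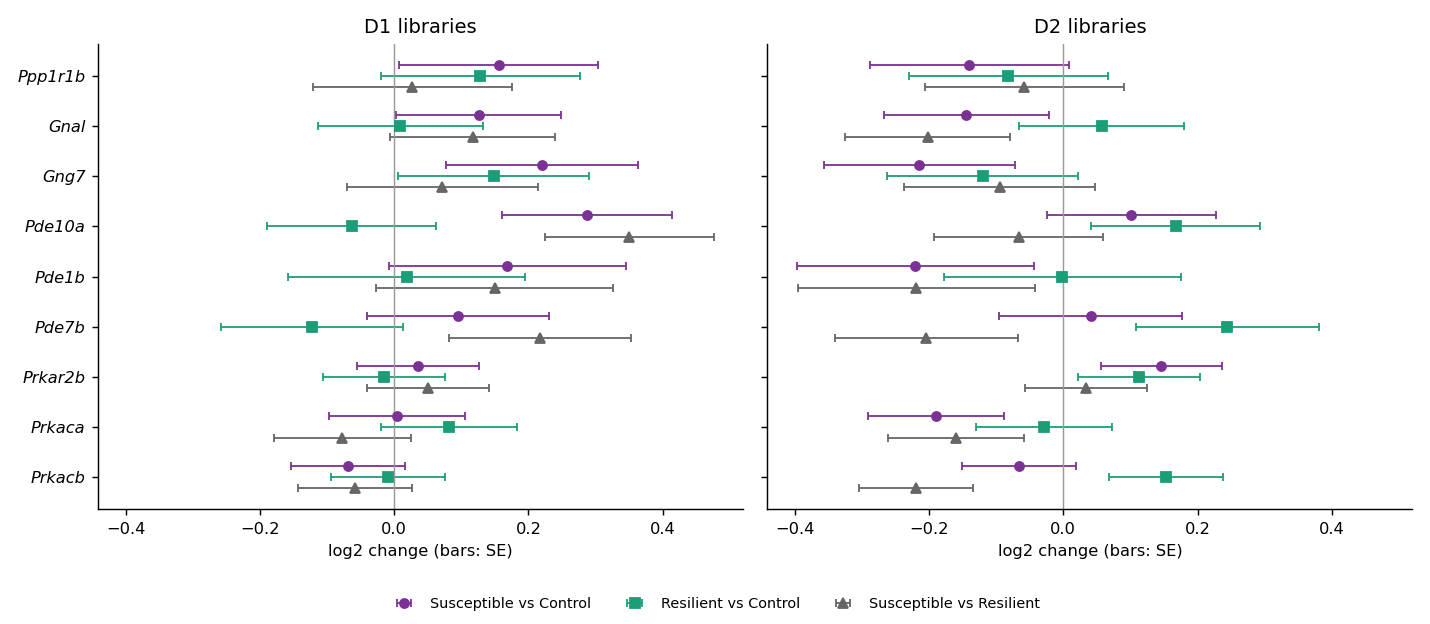
The points are log2 changes between stress groups within D1 (left) and D2 (right) libraries for 9 members, with bars of 1 SE. Purple circles are Susceptible vs Control, green squares Resilient vs Control and grey triangles Susceptible vs Resilient. No change passed an edgeR adjusted p of 0.05, and the D1 changes of Pde10a lie farthest from 0, at 0.29 and 0.35 (0.16 and 0.21 without the 3 libraries that stand apart).

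Some members followed Ppp1r1b from library to library and others did not. After group means were subtracted, Ppp1r1b followed Pde1b over the 30 libraries with Pearson r = 0.92, Gnal with 0.78, Gng7 with 0.77, Prkaca with 0.71 and Pde7b with 0.67. Its r was 0.28 with Pde10a, 0.28 with Prkacb and -0.34 with Prkar2b. These are descriptions over libraries that share depth, scaling and RNA quality. Over 27 libraries, without the 3 that stand apart, r was 0.81 for Pde1b, 0.52 for Gng7 and 0.49 for Gnal. It was 0.37 for Pde7b, 0.36 for Prkaca and 0.00 for Prkar2b. Over the same 27 libraries r was 0.93 for Pde10a with Pde7b, 0.88 for Prkar2b with Prkacb, 0.81 for Prkar2b with Pde7b and 0.78 for Prkar2b with Pde10a. Gnal had r = 0.84 with Pde7b, 0.79 with Pde1b, 0.75 with Pde10a and 0.65 with Prkar2b, so the members do not fall into separate sets.

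**Figure D5:**
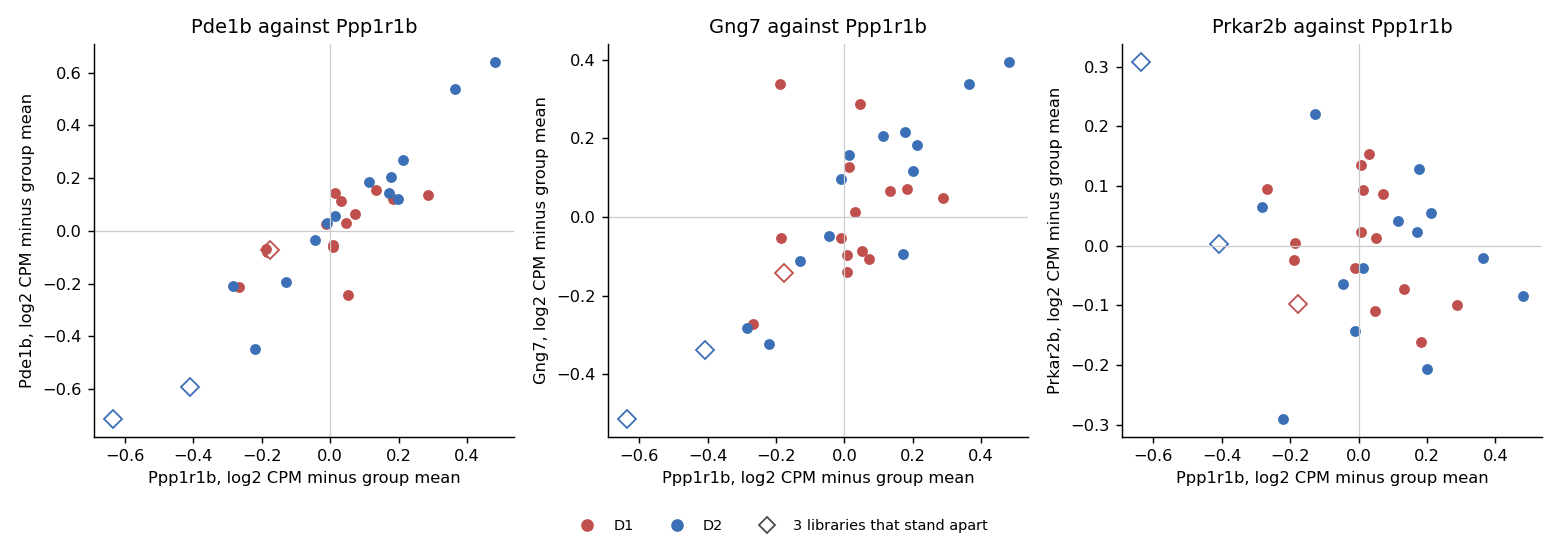
Each point is 1 library, plotted as log2 CPM minus the mean of its group, for Pde1b, Gng7 and Prkar2b against Ppp1r1b, with D1 in red, D2 in blue and the 3 libraries that stand apart as open diamonds. Pde1b follows Ppp1r1b closely (r = 0.92), Gng7 less so (r = 0.77), and Prkar2b does not rise with it (r = -0.34).

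Among all genes tested, the 5 most like Ppp1r1b by this measure over 30 libraries included Ngef (r = 0.96), Sdr39u1 (r = 0.94), Ubb (r = 0.94) and Pomgnt1 (r = 0.93). Of the members Pde1b ranked 16th, Gnal 795th, Gng7 909th, Prkaca 1592nd and Pde7b 2050th, and Prkacb (8044th), Pde10a (8125th), Pde2a (8411th) and Prkar2b (15739th) came after them. Over the 27 libraries the first 5 were Itpka (r = 0.92), Mlf2 (r = 0.91), Ngef (r = 0.90), C2cd2l (r = 0.89) and Phyhip (r = 0.89), and Pde1b ranked 55th. Ngef was in both lists.

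The rest of the pathway was read from 82 further genes in 6 lists, of which 80 were tested. In Control libraries 18 of 80 (22.5%) were called between D1 and D2, 8 higher and 10 lower in D1, in Resilient libraries 16 (9 higher, 7 lower) and in Susceptible libraries 36 (16 higher, 20 lower). These counts were 28, 27 and 19 without the 3 libraries that stand apart. Of all genes tested, 8.3%, 6.65% and 23.9% were called in these groups, and 15.9%, 11.4% and 10.2% without the 3 libraries. Drd1, Drd2 and Adora2a, all in the receptor list, are class markers. The lists were also chosen with earlier results of these data known, so no enrichment is read from these shares. In the 6 stress comparisons and the 3 differences of changes 0 of the 80 were called.

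Among 20 G proteins and cyclases, 8, 8 and 11 were called in Control, Resilient and Susceptible libraries. Without the 3 libraries that stand apart these counts were 10, 9 and 7. Of all genes, 8.3%, 6.65% and 23.9% were called, and 15.9%, 11.4% and 10.2% without the 3 libraries. Adcy2, an adenylyl cyclase, stood at 66.3 ± 4.23 CPM in Control libraries of D1 and 26.6 ± 5.83 CPM in those of D2 (SD, n = 5 each), a log2 difference of 1.31 (edgeR adjusted p = 3.18e-07). Gnb5 was lower in D1 by 0.56 on the log2 scale (332.8 ± 18.2 against 489 ± 62.5 CPM) and Gnai1, an inhibitory G protein subunit, higher by 0.77 (269.7 ± 38.7 against 158 ± 22.9 CPM). Among the 13 other phosphodiesterases, 2, 2 and 4 were called in the same order, against the same shares of all genes. Without the 3 libraries these counts were 4, 7 and 4. The calcium-activated Pde1a was higher in D1 (212 ± 26.3 against 119.5 ± 16.7 CPM, log2 difference 0.83, edgeR adjusted p = 0.00128) and the cAMP-specific Pde4b lower (157 ± 13.5 against 206 ± 17.9 CPM, -0.39, edgeR adjusted p = 0.00112). Both were called with the same sign in Resilient and Susceptible libraries. Pde1b, the relative of Pde1a, had a Control difference of -0.09 (SE 0.18, edgeR adjusted p = 0.868).

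Of 13 other PKA subunits, inhibitors and anchors, 1, 1 and 6 were called in Control, Resilient and Susceptible libraries, and 4, 3 and 2 without the 3 libraries. The shares of all genes called were 8.3%, 6.65% and 23.9%, and 15.9%, 11.4% and 10.2% without the 3 libraries. The regulatory subunit gene Prkar1b was higher in D1 Susceptible libraries (470.6 ± 39.7 against 295 ± 77.1 CPM, log2 difference 0.67, edgeR adjusted p = 0.000241), and the difference was 0.47 (edgeR adjusted p = 0.00175) without the 3 libraries that stand apart. The PKA inhibitor gene Pkig was lower in D1 Control (-0.39, edgeR adjusted p = 0.0390) and D1 Susceptible libraries (-0.41, edgeR adjusted p = 0.0132). The second of these was not called without the 3 libraries (-0.15, edgeR adjusted p = 0.457). Of 17 DARPP-32 kinases, phosphatases and relatives, 2, 1 and 7 were called, all lower in D1, and 4, 1 and 1 without the 3 libraries. They include Arpp19, another cAMP-regulated phosphoprotein (-0.68 in Control, edgeR adjusted p = 6.06e-05), and Ppp1r1a, the inhibitor-1 relative of DARPP-32 (-0.46 in Control, edgeR adjusted p = 0.00146). Of 11 cAMP effectors and targets, 1, 0 and 3 were called (1, 1 and 0 without the 3 libraries), with Rapgef4, a cAMP-activated exchange factor, higher in D1 Control (0.33, edgeR adjusted p = 0.0266).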

How the data were processed

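The authors deposited raw counts per gene for 30 libraries, 1 file each and 1 table of all, which hold identical values. Per the submitters' processing notes, HISAT2, HTSeq and the mouse genome GRCm38/mm10 were used; their versions, the strand setting and the rule for shared exons were not given in the sources used here. Summary lines that name no gene held 10.1% to 53.3% of a library's total and were left out. Gene names, exon lengths and coordinates come from GENCODE M21.

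Genes were filtered with edgeR 4.0.16 (filterByExpr, minimum count 10, minimum total 15), scaled by TMM, and tested with edgeR's quasi-likelihood test in 1 fit of 6 groups over all 30 libraries. P-values were adjusted by Benjamini-Hochberg over all 19368 genes, and 0.05 was the threshold. They measure the spread between pools. CPM values use TMM-scaled library sizes, and correlations use log2 CPM with a prior count of 1. Alternatives were DESeq2 1.42.0, limma 3.58.1 (voom), no filter, only the groups compared, a replicate block, and leaving out libraries. Libraries of different groups with the same replicate number showed no shared deviation from their group means. Their median Pearson r was 9.7e-05, against 0.000144 for other numbers. The main test took the libraries as unpaired. The members and lists were chosen with earlier results of these data known. Named genes were all 10 members, the 5 genes most like Ppp1r1b (1 of them is not reported here), and, per list and comparison, some of the up to 3 called genes with the smallest adjusted p. Promoters come from RefSeq (GRCm38.p6).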

Additional observations from a re-analysis of the deposited data

Results flagged for a closer look

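In 4 of 60 sets of 1 gene in 1 group, a single library lay farther from the other 4 than Dixon's 95% limit allows, and chance alone marks about 1 in 20 such sets. Pde10a had 1019 CPM in D1 Susceptible replicate 1, where the next library had 725 CPM. Pde2a had 6.09 CPM in the same library. Pde10a had 905 CPM in D2 Resilient replicate 1, above 722 CPM in the next. Prkar2b had 203 CPM in D2 Control replicate 4, the lowest of its group. D1 Susceptible replicate 1 is the library with 54.9% of its counts in Gm42418, and the part of that in its values was not tested.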

How the results depend on the processing

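The number of members called between D1 and D2 moved with the method. In Control libraries it was 0, and became 2 with DESeq2, 1 with only the groups compared, 3 with voom, 3 without the 3 libraries that stand apart, and 0 to 2 when 1 library was left out. In Resilient libraries it was 0, and became 1 with DESeq2, 2 with only the groups compared, 3 with voom and 2 without the 3 libraries. In Susceptible libraries it was 2, and became 0 with only the groups compared, 1 with voom (Gng7), 0 without the 3 libraries, and 0 to 4 when 1 library was left out. The cause was not tested. With the replicate number as a block it was 2 in Susceptible libraries and 0 in Control and Resilient libraries, so the block changed no such count. Over all genes the Susceptible count of 4621 became 915 with only the groups compared and 2076 without the 3 libraries. The Control count of 1608 became 5511 with voom, 3247 without the 3 libraries and 2696 with only the groups compared. The Resilient count of 1288 became 3412, 2315 and 2184 in the same order. DESeq2 called 255 genes in D2 Susceptible vs Control and 976 in D2 Susceptible vs Resilient. The r of Ppp1r1b with Prkacb was 0.28 and became -0.0874 without the 3 libraries. Depth did not limit the members other than Pde2a, which had 4 to 124 counts per library.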
